A study of Mus musculus with 12 samples.

Results

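A set of 10 genes that ES cells are known for were followed here, *Dppa2*, *Dppa3*, *Dppa4*, *Dppa5a*, *Eras*, *Utf1*, *Tdh*, *Pim2*, *L1td1* and *Fbxo15*, on 12 arrays of WT and Terc-/- (KO) cells. The members were chosen by name, as every probe set whose annotation gives 1 of these symbols and no other. That rule found 12 probe sets for 9 of the 10 genes, out of 45037 probe sets and 18193 genes in all. *Tdh* was not analysed here, since the annotation used pairs no probe set with its symbol. All cells were of the C57BL/6 background. At day 0 the arrays hold undifferentiated ES cells, the WT lines N12 and N33 at passage 12 and the KO lines F35 and A49 at passage 11, which the labels place in generation G3/4. At days 8 and 15 they hold cells differentiated as embryoid bodies, with 4 days in hanging drops without LIF and then on plates. The labels name no line for those 8 arrays. The paper describes the KO cells of its arrays, day 0 included, as G4, the generation of A49. It lists N33 as its WT line. Yet the day 0 labels also name F35, the paper's G3 line, and N12, which the paper does not list. The paper's wording thus does not identify the lines at day 0, and it may not at days 8 and 15. The duplicates of those days may come from 1 line of each genotype or from more. The labels do not settle it. The KO cells lack *Terc*, the RNA template of telomerase. At day 0 the labels also separate the genotypes by line and passage, so genotype cannot be told apart from these. At days 8 and 15 they give no line or passage, and the same may hold there. *Terc* itself was not analysed here, for the same reason as *Tdh*, so the genotype rests on the labels.

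Most of these genes came to notice because their RNA is high in ES cells and lost when the cells differentiate, and Oct4, Sox2 and Nanog bind near many of them. They do not form 1 pathway. *Dppa2* and *Dppa4* encode paired SAP-domain proteins that bind chromatin and keep developmental promoters ready for use. *Dppa3*, also called Stella, protects the early embryo's genome from loss of DNA methylation and marks germ cells as well. *Dppa5a* and *L1td1* encode RNA-binding proteins, and *Utf1* a chromatin protein. *Eras* is a Ras-like GTPase that stays active without a signal, *Pim2* a kinase of growth and survival, and *Fbxo15* an F-box protein whose gene is a target of Oct4 and Sox2 and long served as a reporter of reprogramming.

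Promoter sequence was at hand for 4 of the 10 genes, and it is shown because the 4 include both genes with the largest differences at day 15, *Eras* and *Pim2*. The windows are the 250 bases before the annotated start in RefSeq for GRCm38.p6, each on the gene's own strand. They lie at chrX:7928608-7928857 on the minus strand for *Eras*, and on the plus strand at chrX:7878056-7878305 for *Pim2*, chr7:139943606-139943855 for *Utf1* and chr4:98726504-98726753 for *L1td1*. Capitals mark the letters of the motifs searched on both strands, the octamer ATGCAAAT bound by Oct4, CATTGT of Sox proteins, TCAAGGTCA of Esrrb, GGGTGTGG of Klf proteins, the E-box CACGTG and the TATA box TATAAA.
*Pim2*: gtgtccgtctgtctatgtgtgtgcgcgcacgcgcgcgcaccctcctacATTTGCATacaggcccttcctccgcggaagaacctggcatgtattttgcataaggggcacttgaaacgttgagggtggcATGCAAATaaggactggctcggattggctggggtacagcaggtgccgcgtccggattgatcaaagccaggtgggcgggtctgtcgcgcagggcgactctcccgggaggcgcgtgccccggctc
*Eras*: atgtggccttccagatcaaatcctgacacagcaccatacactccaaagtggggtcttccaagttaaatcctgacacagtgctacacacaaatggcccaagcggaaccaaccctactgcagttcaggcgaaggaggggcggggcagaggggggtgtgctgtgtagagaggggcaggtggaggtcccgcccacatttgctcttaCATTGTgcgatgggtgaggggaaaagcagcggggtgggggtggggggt
*Utf1*: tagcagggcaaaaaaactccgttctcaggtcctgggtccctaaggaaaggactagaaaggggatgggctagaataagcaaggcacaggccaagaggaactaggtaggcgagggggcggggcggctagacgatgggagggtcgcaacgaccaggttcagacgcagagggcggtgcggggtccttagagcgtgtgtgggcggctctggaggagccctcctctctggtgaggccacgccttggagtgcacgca
*L1td1*: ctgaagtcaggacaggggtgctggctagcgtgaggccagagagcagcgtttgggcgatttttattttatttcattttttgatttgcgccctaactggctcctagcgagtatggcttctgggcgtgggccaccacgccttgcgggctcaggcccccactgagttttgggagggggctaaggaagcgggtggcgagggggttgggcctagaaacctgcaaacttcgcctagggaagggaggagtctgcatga

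The *Pim2* window holds the octamer 2 times, at bases 202 to 195 upstream of the start on the minus strand and at bases 123 to 116 on the plus strand. Among all 32851 windows of this length 1.60% hold the octamer. The *Eras* window holds CATTGT at bases 48 to 43, a motif found in 10.7% of all windows. The windows of *Utf1* and *L1td1* hold none of the 6 motifs, which says only that these letters are not there. By CG dinucleotides the windows ran from 6 in *Eras* to 11 in *L1td1*, 14 in *Utf1* and 22 in *Pim2*, with fewer CG in 49.6%, 64.4%, 70.6% and 85.2% of all windows. A match is a description of the letters and was not tied to any level below.

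An array gives a probe set a relative intensity, and the values were deposited on a linear scale. Day 0 was on a scale of its own, with array medians over all probe sets of 113.6 to 117.02 against 50.6 to 53.1 at days 8 and 15. Levels were therefore compared between genotypes within a day and between days 8 and 15, and day 0 is set beside the later days only as a percentile, the share of probe sets of the same array at or below the gene. With no detection calls used, a value under the median of its array is not shown to be above background. Tests are limma fits of log2 intensities over all 12 arrays, with p-values adjusted over all 45037 probe sets. The labels call the 2 arrays of a group biological replicates, but at days 8 and 15 they may be duplicates of 1 line, and whether the cultures were separate is not stated. The spread behind each p-value is pooled over all 6 groups, day 0 included, so a gene has the same standard error for KO against WT on every day. It does not measure the spread at days 8 and 15 alone. The p-values measure only that pooled spread between samples, which may be in part technical.

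In undifferentiated ES cells all 9 measured genes read high or well above the middle of their arrays, and none differed between WT and KO cells by limma. The lowest in place was *Pim2*, at percentile 75.8 ± 3.45 (SD, n = 2) for the WT lines. Its place in the KO lines was 77.2 ± 5.04 (SD, n = 2). The other 8 lay between percentile 93.9 for *Dppa3* in KO lines and 99.99 for *Dppa5a* in WT lines. *Dppa5a* read 19806 and 20044 in the WT lines and 20349.7 and 19187 in the KO lines, close to the highest value of those arrays, 20085 to 20573.

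Of the 9 members 0 passed at day 0, and 0 had an unadjusted p under 0.05. Over all probe sets 0.0222% were called higher and 0.0266% lower. The log2 differences between KO and WT cells ran from -0.45 to 0.55 with a median of -0.01. The KO lines lay above both WT lines on 2 of 9, a pattern of 29.5% of probe sets, and below them on 3 of 9, a pattern of 18.4%. By the 1.8-fold rule of the study's array methods, a ratio of group means with no test, 0 of 9 passed either way, against 0.522% of probe sets higher and 0.611% lower.

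At day 0 the KO lines A49 and F35 differed most on *Dppa2*, *Dppa3*, *Pim2* and *Fbxo15*. *Dppa2* read 3135 and 2988 in the WT lines, 3399.8 in F35 and 5702 in A49. *Fbxo15* read 1922 and 2327 in the WT lines, 2499.6 in F35 and 3811 in A49. *Dppa3* went the other way, with 2513 and 2729.7 in the WT lines, 2407 in F35 and 1517 in A49. On these 3 genes the KO lines did not overlap the WT lines, and A49 lay farther from them than F35. *Pim2* read 306 and 417 in the WT lines, 317 in F35 and 503 in A49, and there the groups overlapped. Without A49 the log2 difference was 0.15 for *Dppa2*, 0.24 for *Fbxo15* and -0.12 for *Dppa3*, and for *Pim2* it went from 0.16 to -0.17. For the remaining 5 genes the log2 differences lay between -0.05 and 0.06. The arrays of *L1td1* were the closest, at 5610.3 and 5525 in the WT lines and 5432 in each KO line. *Dppa4* read 3659 and 3438 in WT and 3605 and 3775 in KO lines, and *Eras* 2469 and 2612 in WT and 2299.99 and 2629 in KO lines. On these 2 genes the lines overlapped. Summed over 14 genes of fibroblasts, the cells on which the lines were grown, the level at day 0 was 10145 to 12927 in WT and 13677 to 18816 in KO lines. The part of feeder RNA in these values was not tested.

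**Figure D1:**
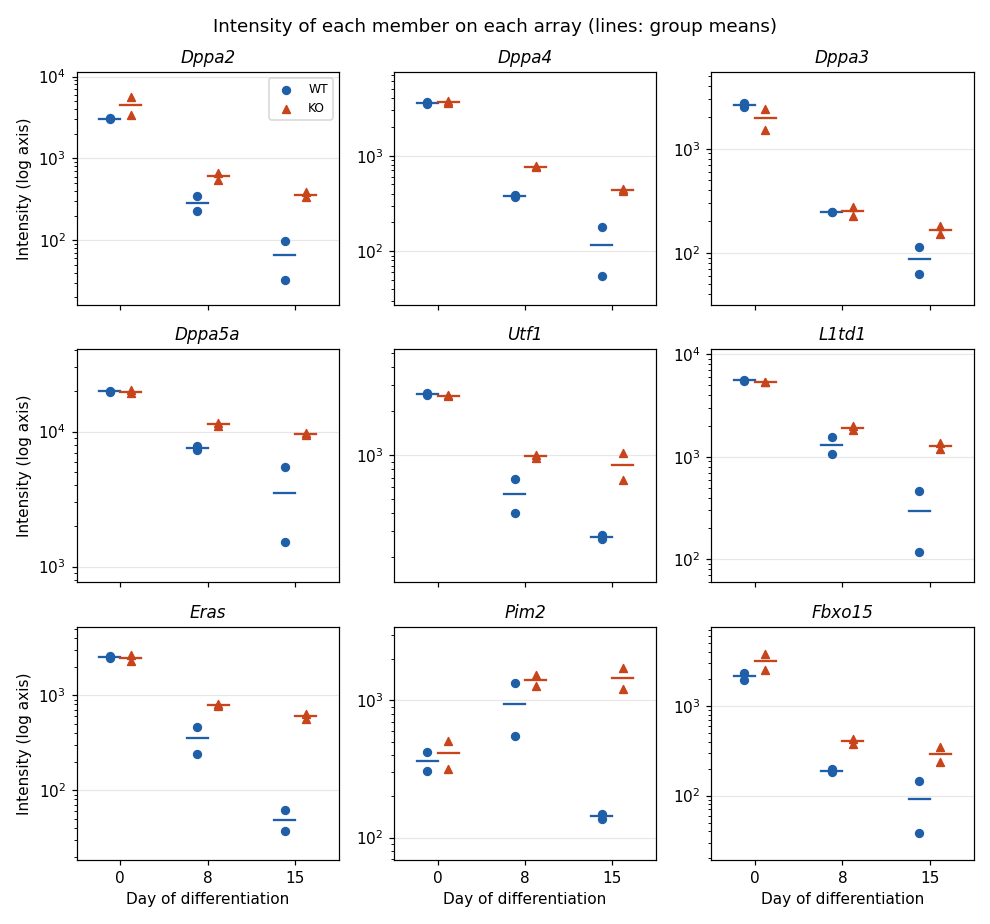
Intensity on a log axis of the brightest probe set of each of the 9 measured genes on each of the 12 arrays, by day, with circles for WT, triangles for KO and a line at each group mean. Both KO arrays of day 15 lie above both WT arrays in every panel, and *Pim2* alone is higher at day 8 than at day 0 although the later arrays have lower medians.

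As the cells differentiated, 8 of the 9 genes had a lower percentile by day 8 in both genotypes, and *Pim2* a higher one. Among the 8, *Dppa5a* stayed near the top, going from 99.99 to 99.4 in WT and 99.7 in KO cells. The median percentile over the 9 members started in WT cells at 95.9 ± 0.0942 (SD, n = 2), was 85.0 ± 1.78 (SD, n = 2) on day 8 and ended at 62.0 ± 11.3 (SD, n = 2). In KO cells it started at 96.5 ± 1.23 (SD, n = 2), was 91.8 ± 0.259 (SD, n = 2) on day 8 and ended at 89.6 ± 1.25 (SD, n = 2). These percentiles are descriptions, with no test across the separately scaled days.

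The mean place of the genes in WT cells came to differ by day 15. The SD over the 2 arrays was up to 19.5 there, for *Fbxo15*, so their order is not settled. *Eras*, the Ras-like GTPase, went from percentile 95.6 to 81.7 and 47.4, and *Dppa2* from 96.5 to 79.5 and 50.3. *Fbxo15* reached 55.8, *Dppa3* 59.8, *Dppa4* 61.7 and *L1td1* 76.6 at day 15. *Utf1* by its brightest probe set had a higher place, at 87.2 and 79.7, and *Dppa5a* stayed within the brightest probe sets, at 99.4 and 97.5. Of the 2 other *Utf1* probe sets, 1 went from 73.9 to 42.2 and 27.4, the other from 12.9 to 31.8 and 32.8. In KO cells at day 15 *Dppa3* had the lowest place, at 72.3 ± 1.51 (SD, n = 2), and *Dppa5a* and *Pim2* the highest, at 99.6 and 95.5.

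*Pim2* took a course of its own. Its percentile in WT cells rose from 75.8 at day 0 to 91.4 at day 8 and then dropped to 69.5, while in KO cells it went from 77.2 to 95.3 and stayed at 95.5. In intensity it read at day 8 1342 and 549 in WT and 1268 and 1522 in KO cells, above each of its day 0 values although the arrays of day 8 have the lower medians.

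**Figure D2:**
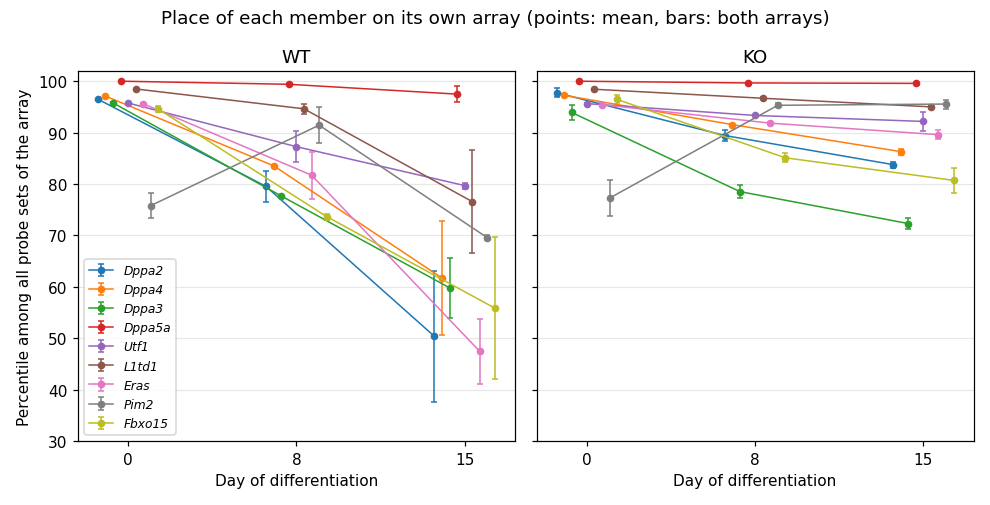
Percentile of each of the 9 genes among all probe sets of its own array, by day, in WT (left) and KO cells (right), with points at the mean and bars spanning the 2 arrays. In WT cells at day 15 the genes spread from 47.4 for *Eras* to 97.5 for *Dppa5a*, and in KO cells from 72.3 for *Dppa3* to 99.6 for *Dppa5a*.

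At day 8 the KO cells read higher than WT cells on most of these genes, but by limma none passed. Of the 9 members 0 passed, while 4 had an unadjusted p under 0.05, and over all probe sets 0.513% were called higher. All 9 log2 differences were above 0, with a median of 0.90 against 0.03 over all probe sets. For 7 of 9 both KO arrays lay above both WT arrays, a pattern of 25.7% of all probe sets, and for 0 below, a pattern of 17.8%. By the 1.8-fold rule 5 were higher, against 0.659% of probe sets.

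*Eras* read 466 and 239 in WT and 807 and 774 in KO cells at day 8, the largest difference of the 9 (log2 1.24, 95% interval 0.59 to 1.89, adjusted p = 0.0818 from limma). *Utf1* read 684 and 401 in WT and 954 and 1003 in KO cells (log2 0.90, 95% interval 0.38 to 1.42, adjusted p = 0.107 from limma). On both genes the WT arrays differed more from each other than the KO arrays did.

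The paired chromatin genes and *Fbxo15* were higher on both KO arrays than on both WT arrays. *Dppa4* read 371 and 385 in WT and 772 and 756 in KO cells, and *Dppa2* 229 and 348 in WT and 668 and 539 in KO cells. *Fbxo15* read 181 and 196 in WT and 376 and 432 in KO cells. The KO means were 2.02, 2.09 and 2.14 times the WT means, and none passed (adjusted p = 0.311, 0.336 and 0.386 from limma). *L1td1* and *Dppa5a*, the genes of RNA-binding proteins, had smaller gaps. *L1td1* read 1549 and 1077 in WT and 2002 and 1823 in KO cells (log2 0.56, 95% interval -0.55 to 1.68), and *Dppa5a* read 7336 and 7820.3 in WT and 11626 and 11029 in KO cells (log2 0.58, 95% interval -0.42 to 1.58).

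*Dppa3* stood out as the member without a gap at day 8. It read 249 and 245 in WT and 273 and 226 in KO cells, a log2 difference of 0.01 (95% interval -0.58 to 0.61), so the groups overlapped. *Pim2* overlapped too, since its WT array at 1342 lay above a KO array at 1268. On WT replicate 1 of day 8 *Eras*, *Utf1*, *L1td1* and *Pim2* were high among the WT pair. With each array of day 8 left out in turn, the log2 difference of *Eras* ran from 0.76 to 1.72. For *Utf1* it ran from 0.52 to 1.29, for *L1td1* from 0.30 to 0.83 and for *Pim2* from 0.05 to 1.34. At day 8 that list of 14 fibroblast genes summed to 17996 and 48909 on the 2 WT arrays and to 15225 to 15917 in KO cells, and the part of this spread in the members' values was not tested.

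By day 15 every measured member was higher in KO than in WT cells. Of the 9 members 9 passed upward by limma, against 6.45% of all probe sets called higher. The median log2 difference was 2.16 against 0.04 over all probe sets, with a range from 0.97 for *Dppa3* to 3.65 for *Eras*. The KO arrays lay above the WT arrays for 9 of 9, a pattern of 30.8% of all probe sets, while 23.4% had them below. The 1.8-fold rule was passed upward by 9 of 9, against 2.29% of probe sets higher and 3.99% lower. In whole cultures, fewer cells of a type and less RNA per cell cannot be told apart.

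Among the signaling genes, *Eras* read 36.9 and 61.2 in WT and 639.8 and 558 in KO cells at day 15. The KO arrays held 12.2 times the WT mean (log2 3.65, standard error 0.29, adjusted p = 1.29e-04 from limma). *Pim2* read 137 and 148 in WT and 1717 and 1209 in KO cells (10.2 times, log2 3.33, standard error 0.39, adjusted p = 9.58e-04 from limma). These 2 genes had the largest differences of the 9, and their groups lay far apart on every array. On WT replicate 1, 3 members read under the median of the array, 53.1, namely *Eras*, *Dppa2* and *Fbxo15*, so that value of each is not shown to be above background and their ratios are uncertain in size.

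Among the chromatin genes, *Dppa2* read 32.2 and 98.5 in WT and 334 and 385 in KO cells (log2 2.67, standard error 0.46, adjusted p = 0.00639 from limma). The other *Dppa2* probe set gave log2 2.43 (adjusted p = 0.00248 from limma). *Dppa4*, its partner, read 54.5 and 177 in WT and 446 and 428 in KO cells (log2 2.16, standard error 0.41, adjusted p = 0.00977 from limma). *Utf1* read 282 and 267 in WT and 1031 and 668 in KO cells (log2 1.60, standard error 0.23, adjusted p = 0.00198 from limma). Of the 2 other *Utf1* probe sets, which read mostly under the array median at day 15, 1 was higher too (log2 1.08, adjusted p = 0.00404 from limma), and the other read log2 0.33 (adjusted p = 0.378 from limma).

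The genes of RNA-binding proteins behaved alike in direction. *L1td1* read 119 and 468 in WT and 1352 and 1192 in KO cells (log2 2.43, standard error 0.49, adjusted p = 0.0132 from limma). *Dppa5a* read 1526 and 5499 in WT and 9444 and 9684 in KO cells (log2 1.72, standard error 0.44, adjusted p = 0.0348 from limma). On both the KO arrays lay close together and WT replicate 1 far below WT replicate 2.

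*Fbxo15* read 38.4 and 145 in WT and 235 and 349.7 in KO cells (log2 1.94, standard error 0.51, adjusted p = 0.0378 from limma). *Dppa3* read 63.0 and 113 in WT and 151 and 181 in KO cells (log2 0.97, standard error 0.27, adjusted p = 0.0397 from limma). It had the smallest difference of the 9, though its groups did not overlap. The call of *Dppa3* ended with an offset of 32 added to every intensity, which left 8 of 9 called, and without any 1 of 3 arrays of day 15, WT replicate 1 and both KO arrays. The call of *Fbxo15* ended without any 1 of the same 3 arrays. Its log2 difference ran from 0.98 to 2.90 with each array of day 15 left out in turn. Differences between members were not tested.

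**Figure D3:**
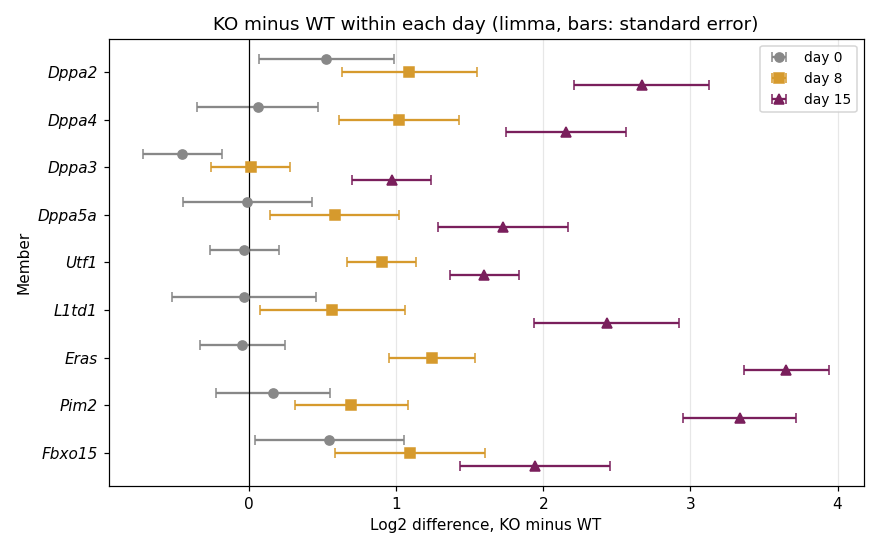
Log2 difference between KO and WT cells from limma for each of the 9 genes at days 0, 8 and 15, with bars for the standard error. At day 0 the points lie between -0.45 and 0.55, and at day 15 between 0.97 for *Dppa3* and 3.65 for *Eras*.

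The 2 WT arrays of day 15 differed on most of these genes. On 8 of the 9 members WT replicate 2 read higher than replicate 1, with a median log2 gap of 1.61, and only *Utf1* did not. Among 36 other ES-cell genes 31 were higher on the same array, with a median gap of 0.89, while the fibroblast genes had a median gap of -0.40. In the other 5 groups the median gap of the members lay between -0.06 and 0.07.

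That spread bears on the calls of day 15. Without WT replicate 1 of day 15, the array where the members were lowest, 7 of 9 passed, and without WT replicate 2 all 9 did. Without KO replicate 1 of day 15 the count was 4, and without KO replicate 2 it was 6. *Eras*, *Pim2*, *Utf1* and *Dppa2* kept their call without any 1 of these 4 arrays. In a fit of the day 15 arrays alone, 3 of 9 passed, *Eras*, *Pim2* and *Utf1*. The shares of all probe sets called in these refits are not given here, so the counts are not read as particular to the members.

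Between days 8 and 15, which share their scaling, the members fell in WT cells. Of 9 members 7 fell by limma and 0 rose, against 9.16% of all probe sets lower and 6.89% higher. The median log2 change was -1.94 against 0.00 over all probe sets, and on 9 of 9 both day 15 arrays lay below both day 8 arrays, a pattern of 25.5% of probe sets. This comparison shares the WT arrays of day 15 with the one between genotypes, so it is no independent evidence for it.

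The steepest falls in WT cells were those of *Eras* and *Pim2*, whose mean levels were 7.19 and 6.62 times as high at day 8 as at day 15. They fell by 2.81 and 2.59 on the log2 scale (adjusted p = 3.73e-04 and 0.00253 from limma). With each WT array of these days left out in turn, the change ran from -3.23 to -1.94 for *Pim2* and from -3.45 to -1.47 for *L1td1*. The order of the falls was not tested. Falls passed too for *L1td1* (log2 -2.46), *Dppa2* (log2 -2.32), *Dppa4* (log2 -1.94), *Dppa3* (log2 -1.55) and *Utf1* (log2 -0.93) (adjusted p = 0.0104, 0.00971, 0.0125, 0.00376 and 0.0214 from limma). Another *Utf1* probe set fell as well (log2 -0.76, adjusted p = 0.0184 from limma), and the last did not (log2 0.11, adjusted p = 0.804 from limma). The call of *Utf1* ended with the mean over its probe sets. It also ended without WT replicate 1 of day 8 or either WT array of day 15. *Dppa5a* and *Fbxo15* had log2 changes of -1.39 and -1.34 and did not pass (adjusted p = 0.0665 and 0.118 from limma). The shares of all probe sets called in the refits that follow are not given here, so their counts are not read as particular to the members. With only the 4 WT arrays of those days fitted, 1 of 9 passed, that of *Eras*, and without WT replicate 1 of day 8 the count was 4.

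In KO cells over the same days 0 of 9 passed by limma, and 0 had an unadjusted p under 0.05. Over all probe sets the calls were few, 0.0178% higher and 0.00222% lower. The median log2 change was -0.49, and on 7 of 9 both day 15 arrays still lay below both day 8 arrays, a pattern of 24.8% of probe sets. With only the 4 KO arrays fitted, 4 of 9 passed. The share of all probe sets called in that fit is not given here, so the count is not read as particular to the members.

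The size of a fall that these arrays leave room for in KO cells is given by the intervals. For *Dppa4* the log2 change was -0.80 (95% interval -1.73 to 0.12), for *Dppa2* -0.74 (95% interval -1.78 to 0.30) and for *Dppa3* -0.59 (95% interval -1.19 to 0.00). *Eras* had -0.40 (95% interval -1.05 to 0.24) and *Pim2* 0.05 (95% interval -0.82 to 0.92). Whether these changes differ from those in WT cells is not shown by the intervals, which leave out the WT error, and was tested as the interaction described next.

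**Figure D4:**
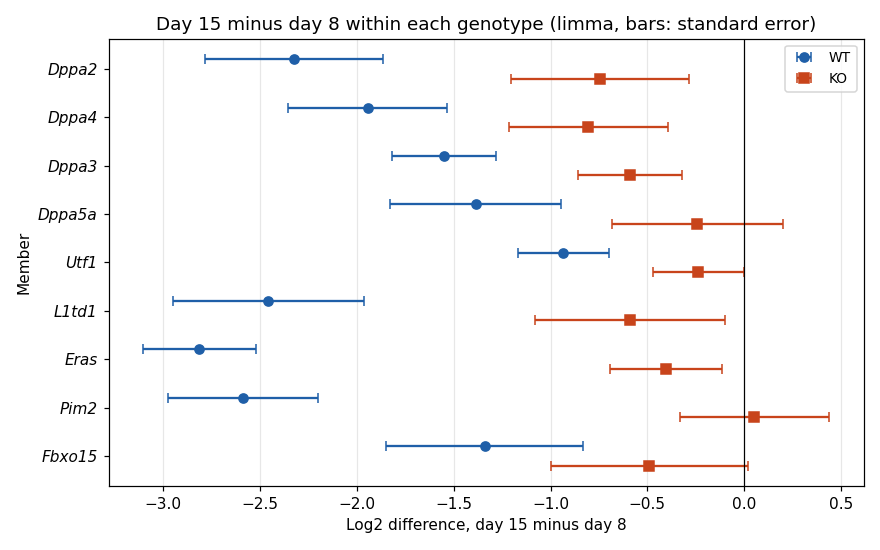
Log2 change from day 8 to day 15 from limma for each of the 9 genes within WT (circles) and KO cells (squares), with bars for the standard error. The WT changes lie between -2.81 for *Eras* and -0.93 for *Utf1*, and the KO changes between -0.80 for *Dppa4* and 0.05 for *Pim2*.

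An interaction term tested whether KO and WT cells differed in their change over time. From day 8 to day 15 it passed for 1 of 9 members, *Eras* (log2 2.41, standard error 0.41, adjusted p = 0.0444 from limma), against 0.138% of probe sets called in that direction and 0.284% in the other. *Pim2* had a larger estimate that did not pass (log2 2.64, standard error 0.55, adjusted p = 0.0961 from limma). All 9 estimates were above 0, with a median of 1.14, and 5 had an unadjusted p under 0.05. For the fits with 1 array left out, the share of all probe sets called is not given here. Their counts are thus not read as particular to the members. The call of *Eras* did not survive leaving out WT replicate 1 of day 15 or any single KO array of day 8 or 15, with 0 of 9 passing in each. Without WT replicate 2 of day 8 the count was 3, and without WT replicate 2 of day 15 it was 6.

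From day 0 to day 15 the interaction passed for 3 of 9, *Eras* (log2 3.70, adjusted p = 0.00258), *Pim2* (log2 3.17, adjusted p = 0.0163) and *Utf1* (log2 1.63, adjusted p = 0.0237 from limma), against 1.89% of probe sets called that way and 2.49% the other. A constant factor on day 0 that is the same for both genotypes cancels in this value, but day 0 did not differ by a factor alone. Its lower quartiles were 54.4 to 56.3 against 19.1 to 20.7 later. Its highest values were 20085 to 20573 against 21368 to 22080. The part of that difference in this value was not tested. The counts below, with 1 array left out, also stand without the share of all probe sets called and are not read as particular to the members. The count was 5 without WT replicate 1 of day 15 and 9 without WT replicate 2. It was 1 without KO replicate 1 of day 15 or without N33, the WT line that is replicate 2 of day 0. *Pim2* lost its call without either of these 2 arrays. *Utf1* lost its call with the mean over its probe sets, without any 1 of the 4 day 0 arrays, without KO replicate 1 of day 15 and without WT replicate 1 of day 15. From day 0 to day 8 it passed for 0 of 9, with 2 at an unadjusted p under 0.05, and for 0% of probe sets.

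The KO cells of day 15 were also set beside the WT cells of day 8. The ratio of the KO mean at day 15 to the WT mean at day 8 ran from 0.671 for *Dppa3* to 1.70 for *Eras*. It was 0.969 for *L1td1*, 1.16 for *Dppa4*, 1.25 for *Dppa2*, 1.26 for *Dppa5a*, 1.55 for *Pim2* and *Fbxo15* and 1.57 for *Utf1*. For 7 of the 9 genes the KO mean was thus the higher. These ratios are descriptions and were not tested.

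The members shared their course with a list of other ES-cell genes. Like the members, that list was chosen with earlier results of these data known, so it is no independent evidence. Of 40 such genes listed apart from the members, 36 are measured. Of these 28 were higher and 0 lower in KO cells at day 15, with a median log2 difference of 1.54. Over all probe sets 6.45% were called higher and 6.45% lower. At day 0 the counts of the list were 0 and 0. At day 8 they were 5 higher and 0 lower, against 0.513% and 0.615% of all probe sets. In WT cells from day 8 to day 15, 25 fell and 1 rose, against 9.16% and 6.89% of all probe sets. In KO cells 0 passed. *Tdgf1*, a co-receptor of Nodal, *Pou5f1*, which encodes Oct4, *Fgf4*, a growth factor, and *Nanog* had the largest differences at day 15 among those that passed, with log2 4.24, 3.58, 3.25 and 3.10.

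Markers of other cells moved on the same arrays. Of 10 genes of the primed epiblast, the state that follows that of ES cells, 6 were higher and 1 was lower in KO cells at day 15, with *Fgf5* at log2 4.64. Of 9 measured genes of primordial germ cells, in which *Dppa3* is also active, 6 were higher and 0 lower, *Ddx4* at 1.97 among them, although 2 of the 9 are also on the ES-cell list. Of 14 fibroblast genes 9 were lower and 0 higher, and their summed level was 80594 to 102617 in WT and 24661 to 31118 in KO cells. Of 8 endoderm and yolk sac genes 5 were lower, and of 4 measured proliferation genes 1 was higher. Of 5 blood genes 3 were lower, of 5 neural genes 2 were higher, and of 5 cardiac genes 0 passed. These counts stand beside 6.45% of all probe sets called higher and 6.45% lower at day 15. The part of these cell types in the members' values was not tested.

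Over the 8 arrays of days 8 and 15 the members followed each other closely. The correlation of log2 intensities between pairs ran from r = 0.66 for *Utf1* and *Dppa3* to r = 0.99 for *Dppa2* and *Dppa4*, and for *Eras* and *Pim2* it was 0.98. These values describe 8 arrays in 4 groups, which share the day and genotype, and they carry no test. Against the mean of the members, *Dppa4*, *L1td1* and *Dppa2* followed it most closely (r = 0.99, 0.99 and 0.98) and *Utf1* and *Dppa3* least (r = 0.89 and 0.90).

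Among 11557 other genes at or above the median level, those most like the mean of the members over these 8 arrays were *Gtsf1l*, *Msh6*, *Dyrk3*, *Cyb561* and *Nanog*, with r from 0.99 to 1.00. *Msh6* belongs to DNA mismatch repair and *Nanog* to the core of pluripotency. For *L1td1* the closest was *Sall4*, a pluripotency factor, for *Eras* it was *Nodal*, a growth factor of the epiblast, and for *Dppa2* it was *Morc1*, a germline gene. For *Pim2* the closest 2 were *Snhg14* and *Fgf5*, the latter a marker of the primed epiblast. The second closest was *Tuba4a* for *L1td1*, *Eif3l* for *Eras* and *Sgk1* for *Dppa2*. For the other members the closest was *Riok2* for *Dppa3*, *Gtsf1l* for *Dppa4*, *Porcn* for *Dppa5a*, *Zbtb44* for *Utf1* and *Trim13* for *Fbxo15*. Each of these had r from 0.99 to 1.00 after rounding.

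Some members are neighbours in the genome, by the order of protein-coding genes in RefSeq for GRCm38.p6. *Dppa4* and *Dppa2* lie next to each other with none between, and the next gene beyond *Dppa2* is *Morc1*. At day 15 *Morc1* had a mean intensity of 25.03 in WT and 149.7 in KO cells (log2 2.70, adjusted p = 8.15e-04 from limma), the WT mean being under the array median. *Pim2* and *Eras* lie near each other on the X chromosome with 4 genes between them, *Slc35a2*, *Pqbp1*, *Timm17b* and *Pcsk1n*. Of these 4, 0 passed at day 15, and their log2 differences ran from -0.22 to 0.46, against 3.33 and 3.65 for the 2 members beside them. Over all 618 measured X-linked genes the median log2 difference was 0.01, with 58 higher and 55 lower. Over all 18193 genes the median was 0.04, with 1595 higher and 1512 lower. These neighbours were looked at after the members' values were seen.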

How the data were processed

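RNA was taken from WT and Terc-/- cells at days 0, 8 and 15, and 100 ng of each sample was labelled for Affymetrix 430 2.0 mouse arrays, 2 per group. The authors deposited linear intensities, 1 value per probe set and array. The submitters' processing notes name MAS5, with version and settings not given in the sources used here, and the methods name the software of CapitalBio. Arrays have no read depth, and their number limits the precision.

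Of 45101 probe sets 64 controls were left out. Of the rest 34945 carry 1 gene symbol, 932 several and 9160 none. A gene was read from its brightest probe set. Intensities under 1 were set to 1, and limma 3.58.1 (R 4.3.3 with statmod 1.5.0) was run on log2 values. Each group had its own mean, and moderation was robust and followed the intensity trend. The replicate number was not a term. Two-sided p-values were corrected by Benjamini-Hochberg across the whole array and called at 0.05. The fit was tested on simulated data. Named genes are the 9 measured members, up to 4 of the largest passing differences of the other ES-cell list, the closest patterns, and examples chosen after their values were seen. The members and lists were chosen with earlier results of these data known. Promoter windows came from RefSeq. Levels and plots came from pandas 2.3.3, numpy 2.4.6 and matplotlib 3.10.9 under Python 3.11.15. Alternatives were other scalings, an offset of 32, only brighter probe sets, plain moderation, the replicate number as a block, fits of just the compared arrays, the methods' t-test, the mean over probe sets, each array left out, and other ranks.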

Additional observations from a re-analysis of the deposited data

Results flagged for a closer look

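For 4 tests the change over time differed between KO and WT cells by the interaction in limma. From day 8 to day 15 this was *Eras*, with a log2 difference in change of 2.41 (standard error 0.41, adjusted p = 0.0444 from limma). From day 0 to day 15 it was *Eras* with 3.70 (standard error 0.41, adjusted p = 0.00258), *Pim2* with 3.17 (standard error 0.55, adjusted p = 0.0163) and *Utf1* with 1.63 (standard error 0.33, adjusted p = 0.0237 from limma). The value of *Eras* from day 0 to day 15 passed in each alternative run for it, leaving out any single array included. That of *Pim2* was lost without 2 arrays, and that of *Utf1* without any 1 of 6 arrays and with the mean over its probe sets.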

How the results depend on the processing

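All 9 differences at day 15 kept their direction in every alternative run. The counts in this section stand without the share of all probe sets called in each fit, so they are not read as particular to the members. With only the arrays compared, 3 members passed between genotypes at day 15 (9 as reported), 1 in WT cells from day 8 to day 15 (7 as reported), 4 in KO cells (0 as reported) and 0 in the interaction over those days (1 as reported). That interaction count was also 0 with quantile normalization, with the offset of 32 and with the replicate block. The methods' t-test gave 3 members at its threshold between genotypes at day 15 and 1 in WT cells from day 8 to day 15, and 0 in each after Benjamini-Hochberg. With the offset of 32 or the replicate block the day 15 count was 8, without *Dppa3* in each, and with the block that of WT cells 8. The numbers were not taken to pair the samples, since same-numbered arrays deviated together with r from -0.07 to 0.13.

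Leaving out 1 array at a time, the members called ranged from 0 to 3 between genotypes at day 8, 4 to 9 at day 15, 4 to 8 for WT cells from day 8 to day 15, 0 to 6 for the interaction from day 8 to day 15, 1 to 9 for that from day 0 to day 15 and 0 to 2 for that from day 0 to day 8. Directions turned in differences that had not passed. These were at day 0 *Pim2* (-0.17 to 0.49), *Eras* (-0.14 to 0.050) and *Dppa5a* (-0.054 to 0.030), and at day 8 *Dppa3* (-0.13 to 0.15). They were also *Pim2* (-0.20 to 0.31) and *Utf1* (-0.55 to 0.076) in KO cells from day 8 to day 15, *Fbxo15* in the interaction from day 8 (-0.11 to 1.81) and *Pim2* in that from day 0 to day 8 (-0.11 to 1.18). Centring on the median turned *Dppa3* at day 8 to -0.014, and the mean over probe sets turned *Utf1* at day 0 to 0.081. Ranked among probe sets with 1 symbol, the median percentile was 95.6 in WT cells at day 0, 82.4 in WT and 90.7 in KO cells at day 8 and 88.0 in KO cells at day 15. It was 56.5 in WT cells at day 15 and 96.3 in KO cells at day 0, moves smaller than the SD of those groups. The cause of these changes was not tested.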
